A study of Mus musculus with 16 samples.

Results

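A set of 10 genes of retinoid signalling and vitamin A handling was followed through the lists of chromatin regions that differed between NCoR1-deleted and wild-type jejunal epithelial cells. They are the receptor genes Rara, Rarb, Rarg and Rxra, the uptake and storage genes Stra6, Rbp2 and Lrat, the carotenoid-cleaving enzyme gene Bco1 (named Bcmo1 in the mm9 gene models), the retinaldehyde reductase gene Dhrs3 and the homeobox gene Isx. A region belonged to a gene when its summit lay nearest to a transcription start of that gene, among protein-coding genes, and within 50 kb of it. By this rule 9 of the 10 genes, of 21833 protein-coding genes on chromosomes with a listed region, had at least 1 region, beside 38.4% of all these genes, and 44 of 23511 regions belonged to them. Bco1 had none in any list.

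The KO group consisted of C57BL/6 neonates at postnatal day 12 with an intestinal NCoR1 deletion, coded ΔIECUN by the submitters, and the WT group of F/FUN neonates of the same strain and age. What drives the deletion, what the suffix UN stands for and how many animals made up a library are not given in the sources used here. ChIP-seq, which counts DNA fragments pulled down with an antibody, was run on isolated jejunal epithelial cells for 6 histone marks, with 1 library per mark and genotype and 2 input libraries per genotype that were not analysed here. No difference between KO and WT could therefore be set against replicate error, no test was possible, and all chromatin values describe these 12 ChIP libraries.

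Vitamin A enters the enterocyte as carotenoids or retinol, is bound by cellular retinol-binding protein, esterified and exported in chylomicrons, while a small part is oxidised to retinoic acid. Retinoic acid binds receptors of the RAR family, which sit on DNA as heterodimers with RXR. Without ligand these heterodimers recruit corepressors, NCoR1 among them, with their histone deacetylase, and with ligand they exchange them for coactivators. H3K27ac and H3K9ac mark active enhancers and promoters, H3K4me3 active promoters, H3K4me1 enhancers, and H3K9me3 and H3K27me3 repressed chromatin.

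Each list holds the regions in which the library of one genotype exceeded the library of the other for the same mark at the authors' q cutoff of 0.05, and such regions are called KO-higher or WT-higher. For H3K4me1 and H3K27me3 the file of the KO sample repeats the regions of the WT list, so a KO-higher list of these 2 marks was not analysed here. The libraries held 27946003 to 47976125 tags, and 23925163 to 32444815 after duplicate removal. Of marker genes for the labelled cells, all 10 enterocyte genes (Vil1, Fabp1, Fabp2, Apoa1, Apoa4, Alpi, Lct, Cdh1, Epcam and Krt20) had KO-higher H3K27ac and none had WT-higher H3K27ac. Among them 8 had KO-higher H3K9ac, Lct had WT-higher H3K4me3, Krt20 had WT-higher H3K4me1, and Vil1 was KO-higher for H3K4me3 and for H3K9me3, a mark of repressed chromatin. No acetylation or H3K4 methylation region lay at any of 7 stromal or 6 immune marker genes, and 1 stromal gene, Col3a1, had KO-higher H3K9me3. Among 6 secretory cell genes, Chga had H3K27ac regions of both directions and KO-higher H3K9ac, and Muc2 had WT-higher H3K4me1. These lists show differences and not levels, so the makeup of the cells could not be read from them, and the part of cell makeup in the results below was not tested.

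The sequences below carry the acetylation differences described next. The first 3 are the stretches where a KO-higher H3K27ac region and a KO-higher H3K9ac region of a member overlapped, and the other 3 show the acetylation region with the highest -log10 q of Rara, Dhrs3 and Lrat. All are the plus strand of the mm9 assembly, 5′ to 3′, and for Dhrs3 a window of 300 bases around the summit is shown in place of the longer region. Capitals in Dhrs3 mark nuclear receptor half-sites (the letters AGGTCA or GGGTCA or AGTTCA or GGTTCA, on either strand). In the downstream Isx stretch and in Lrat, capitals mark the longest run of identical bases that these 2 sequences share, 20 bases. The bases on both sides of this run are also largely alike in the 2 sequences, with mismatches.
Rbp2 intron, both acetylation marks (chr9:98397746-98397908): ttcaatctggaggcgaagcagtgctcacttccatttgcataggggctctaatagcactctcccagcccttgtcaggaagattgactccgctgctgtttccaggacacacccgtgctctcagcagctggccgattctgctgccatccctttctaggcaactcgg
Isx intron, both acetylation marks (chr8:77402196-77402384): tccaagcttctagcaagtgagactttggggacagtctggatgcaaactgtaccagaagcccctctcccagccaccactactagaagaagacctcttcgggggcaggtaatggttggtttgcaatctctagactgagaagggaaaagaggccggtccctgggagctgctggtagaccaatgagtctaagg
Isx, downstream of the gene, both acetylation marks (chr8:77423065-77423206): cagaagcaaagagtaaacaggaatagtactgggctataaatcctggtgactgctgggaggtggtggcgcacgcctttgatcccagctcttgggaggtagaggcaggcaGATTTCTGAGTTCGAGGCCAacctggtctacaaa
Rara intron, KO-higher H3K27ac (chr11:98796088-98796258): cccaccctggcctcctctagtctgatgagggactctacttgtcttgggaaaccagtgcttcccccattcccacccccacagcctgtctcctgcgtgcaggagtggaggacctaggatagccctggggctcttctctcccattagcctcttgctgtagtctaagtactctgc
Dhrs3 intron, KO-higher H3K27ac (chr4:144504091-144504390): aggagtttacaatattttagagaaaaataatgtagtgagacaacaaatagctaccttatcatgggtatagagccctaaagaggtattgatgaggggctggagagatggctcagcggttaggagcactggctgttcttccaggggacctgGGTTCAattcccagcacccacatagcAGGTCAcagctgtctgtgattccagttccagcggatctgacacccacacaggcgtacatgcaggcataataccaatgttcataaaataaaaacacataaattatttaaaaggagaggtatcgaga
Lrat intron, WT-higher H3K9ac (chr3:82705861-82706004): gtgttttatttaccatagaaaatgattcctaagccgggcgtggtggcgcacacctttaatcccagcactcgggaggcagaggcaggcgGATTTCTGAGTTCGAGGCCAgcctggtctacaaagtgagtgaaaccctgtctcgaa

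Half-sites were found in the Dhrs3 sequence (2, both on the plus strand) and in none of the other 5, which are shorter. In windows of 300 bases, the Lrat H3K9ac region and the downstream Isx H3K27ac region held 1 half-site each. The downstream Isx H3K9ac window and the Rara, Rbp2 and intronic Isx windows of the sequences shown held 0. In windows of 300 bases around the summits, 17 of 30 KO-higher acetylation windows of the members held at least 1 half-site, beside 52.2% of all KO-higher H3K27ac windows and 52.0% of all KO-higher H3K9ac windows. Paired half-sites in the same orientation spaced by 1 to 5 bases (DR1 to DR5, the arrangement bound by RXR heterodimers) were found in 0 of the 44 member windows and in 0.789% of all KO-higher H3K27ac windows. A match of letters does not show binding, and its absence says only that these letters are not in these windows. Whether the half-sites, those of Dhrs3 among them, lie in annotated repeats was not tested.

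The members split by direction. Rara, Dhrs3 and Isx had KO-higher regions only, Rarb, Rarg, Rxra, Stra6 and Lrat had WT-higher regions only, and Rbp2 had both. Over all genes 9.71% had KO-higher regions only, 24.0% had WT-higher regions only and 4.73% had both. All 30 KO-higher regions were acetylation regions, in a comparison without a KO-higher list for H3K4me1 and H3K27me3. The 14 WT-higher regions were 6 acetylation, 3 H3K4me3 and 5 H3K4me1 regions. No KO-higher H3K4me3, H3K9me3 or WT-higher H3K27me3 region lay at a member, in lists that reached 0.298%, 2.27% and 0.861% of all genes, and WT-higher H3K9me3, at 1.08% of all genes, was also absent. A -log10 q of at least 5 was reached by 18 of 23 KO-higher H3K27ac regions of the members, beside 69.8% of that list, and by 7 of 7 KO-higher H3K9ac regions, beside 63.6%. In the WT direction it was reached by 0 of 3 H3K27ac regions (beside 51.3% of the list), 1 of 3 H3K9ac regions (29.8%), 2 of 3 H3K4me3 regions (35.6%) and 0 of 5 H3K4me1 regions (43.2%), and the 3 regions that reached it lay at Rbp2 or Lrat.

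**Figure D1:**
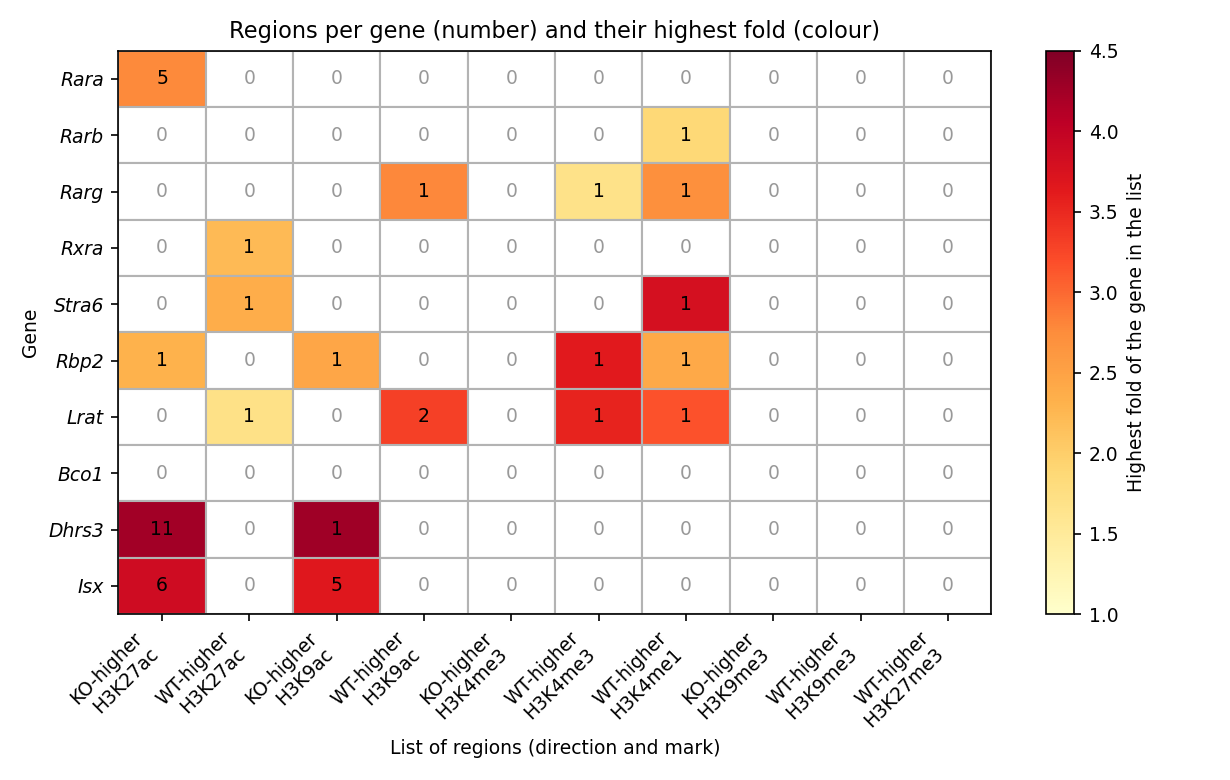
Number of regions (figure in each cell) and highest fold among them (colour, authors' fold of pileup over the local background of the other genotype) for the 10 genes, in rows by role, and the 10 lists, in columns with KO-higher before WT-higher. Dhrs3 has 11 and Isx 6 KO-higher H3K27ac regions, and Bco1 has 0 in every list.

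Of the 10 genes, 4 had KO-higher H3K27ac, beside 11.5% of all protein-coding genes, and 3 had KO-higher H3K9ac, beside 4.0% of all. In the WT direction 3 had H3K27ac (beside 7.53% of all genes), 2 had H3K9ac (beside 7.58%), 3 had H3K4me3 (beside 15.2%) and 5 had H3K4me1 (beside 7.57%). All genes are counted here, whether or not the intestine expresses them. The 10 members were chosen with earlier results of these data known, and the part of that choice in these shares was not tested. With regions of a -log10 q of 5 or more alone, 0 members had WT-higher H3K27ac, 1 had WT-higher H3K9ac and 0 had WT-higher H3K4me1. The median fold over the members was 2.36 for KO-higher H3K27ac, beside 2.52 over the whole list, and 2.82 for KO-higher H3K9ac, beside 2.91. For WT-higher H3K27ac the medians were 2.23 over the members and 2.57 over the list, for WT-higher H3K9ac 2.79 and 2.80, and for WT-higher H3K4me1 2.72 and 2.94. WT-higher H3K4me3 had a median of 3.55 over its 3 member regions and 2.1 over the list. Median GC content was 55.1% in the members' KO-higher H3K27ac regions and 54.9% over that list, and 50.6% in their WT-higher H3K4me3 regions, beside 64.6% over that list.

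**Figure D2:**
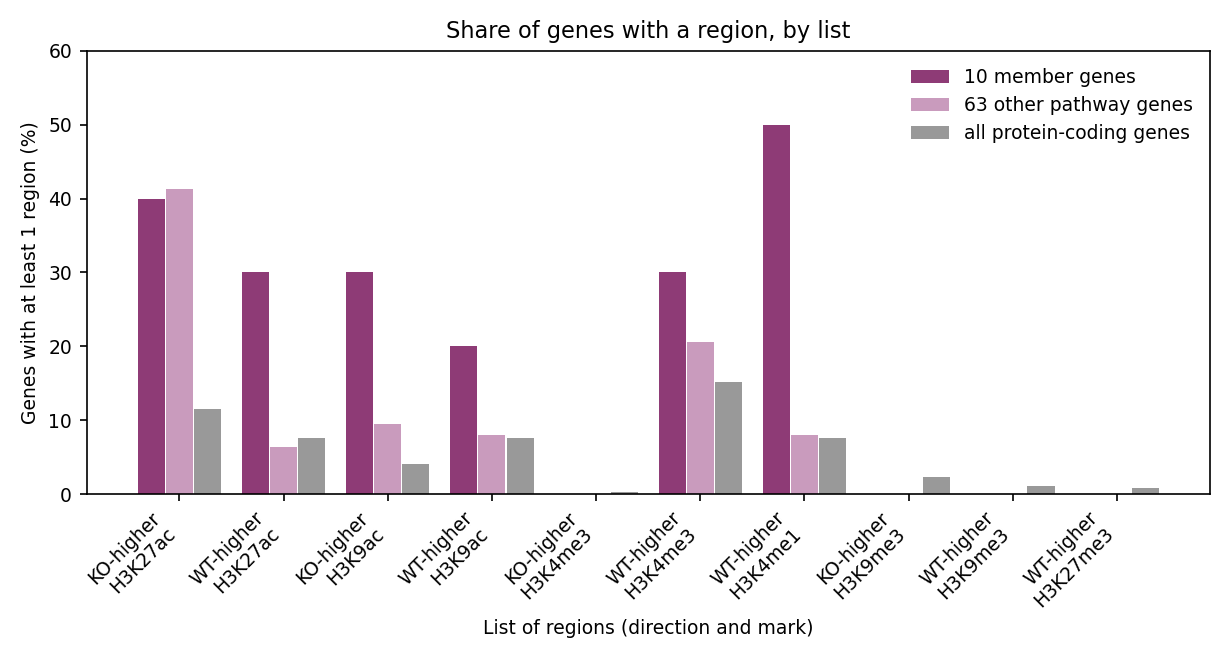
Percent of genes with at least 1 region in each list, for the 10 member genes, the 63 other genes of the retinoid pathway lists and all 21833 protein-coding genes. The bars of the members stand for 4 of 10 genes with KO-higher H3K27ac, beside 11.5% of all genes, and 5 of 10 with WT-higher H3K4me1, beside 7.57%. The members and the pathway lists were chosen with earlier results of these data known.

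For each region 2 values are available: the pileup, the number of overlapping fragments at the summit in the higher library, and the local background, the number expected there from the other genotype's library. Fold is the ratio of the 2, with 1 added to each. The local background is not the other library's own signal at the summit, because the caller takes it from wider windows too. Over the 44 member regions the fold ranged between 1.36, at Rara, and 4.28, at Dhrs3.

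**Figure D3:**
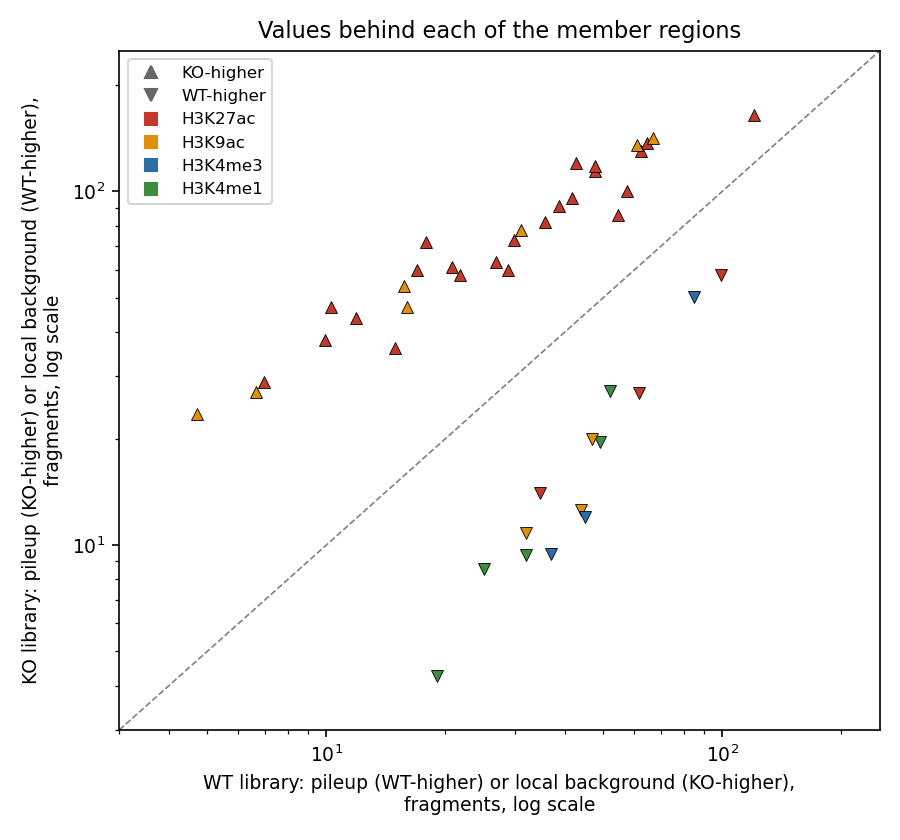
Value of the KO library against the value of the WT library at each of the 44 member regions, in fragments on log axes. In a KO-higher region the KO value is the pileup and the WT value the local background, and in a WT-higher region the WT value is the pileup and the KO value the local background. The dashed line marks equal values, and Dhrs3, Isx, Rara and Rbp2 supply all points above it.

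Among the receptors, Rara, which encodes retinoic acid receptor alpha, had 5 KO-higher H3K27ac regions, all in introns of its 47.1 kb on chromosome 11 (98789132 to 98836256, plus strand). The strongest by q lay 7.1 kb into the gene, at 98796088 to 98796258, with a pileup of 120 in KO against a local background of 42.7 in WT, a fold of 2.77 and a -log10 q of 17.1. A second intronic region, 18.4 kb into the gene, had 73.0 in KO against 29.8 in WT, a fold of 2.41. The region with the highest pileup, 164 in KO, lay 8.9 kb into the gene, just upstream of an internal start (0.97 kb), and had the lowest fold of the 44, 1.36, over a WT background of 120. The remaining 2 had folds of 2.05 and 1.73. The summits 17.4 and 18.4 kb into the gene lie nearest to a U6 small nuclear RNA gene in the same intron when genes of every biotype are used, which leaves 3 regions at Rara. Restricting to a -log10 q of 5 or more left 2 of the 5.

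The other 3 receptor genes had WT-higher regions only. Rarb, a receptor that is itself a classical retinoic acid target, had 1 WT-higher H3K4me1 region at an internal start, 0.20 kb before it, on chromosome 14 (17408186 to 17408369). The KO local background was 27.3 and the WT pileup 52.0, a fold of 1.87. Rarg, the receptor known best from skin and cartilage, had 3 WT-higher regions. H3K9ac lay at the promoter, 0.4 kb into the gene at 102087545 to 102087802 on chromosome 15, with a KO local background of 10.8 against a WT pileup of 32.0 and a fold of 2.79. H3K4me1 lay in an intron 7.9 kb into the gene (8.54 in KO, 25 in WT, fold 2.72) and H3K4me3 over a coding exon 11.3 kb in (50.4 in KO, 85.0 in WT, fold 1.67). Rxra, the shared heterodimer partner of RAR, PPAR, LXR and FXR, had 1 WT-higher H3K27ac region 20.03 kb upstream of the gene, between genes at 27511851 to 27512020 on chromosome 2, with 27 in KO against 61.5 in WT and a fold of 2.23. With a limit of 20 kb Rxra had 0 regions. None of the 5 WT-higher regions at Rarb, Rarg and Rxra had a -log10 q of 5 or more. Their highest was 4.44, at Rxra.

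Of the uptake and storage genes, Stra6 encodes the membrane receptor for retinol bound to its plasma carrier. It had a WT-higher H3K27ac region in an intron 60.9 kb into the gene (14 in KO, 34.7 in WT, fold 2.38) and a WT-higher H3K4me1 region 8.2 kb upstream (4.27 in KO, 19 in WT, fold 3.79). The upstream region lies in an intron of Ccdc33, which overlaps Stra6 on the other strand, and joins Stra6 only by the nearest start. Under the authors' own gene names Stra6 had 0 WT-higher H3K4me1 regions. Both had a -log10 q under 5 (2.50 and 3.88).

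Rbp2 encodes the retinol-binding protein of the enterocyte cytosol, abundant in the small intestine. It was the member with regions in both directions. In an intron 6.9 kb into the gene, on chromosome 9, KO-higher H3K27ac (98397746 to 98397915) and KO-higher H3K9ac (98397719 to 98397908) shared 163 bases, with summits 1 bp apart. H3K27ac had a pileup of 91.0 in KO against 38.7 in WT (fold 2.32), and H3K9ac had 77.7 in KO against 31.0 in WT (fold 2.46). The methylation marks of the same gene ran the other way. H3K4me3 was WT-higher 2.3 kb into the gene, with 9.41 in KO against 37.0 in WT, a fold of 3.65 that exceeded 88.9% of the WT-higher H3K4me3 list, and H3K4me1 was WT-higher 6.1 kb upstream (19.6 in KO, 49.0 in WT, fold 2.42). No base was shared between the regions of the 2 directions.

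Lrat encodes lecithin retinol acyltransferase, which esterifies retinol for storage and for export in chylomicrons. Each of the 4 active marks had a WT-higher region there, 5 regions in all, within 2.7 kb of its start on chromosome 3 (gene at 82696501 to 82707895, minus strand). H3K4me3 in the intron 2.7 kb in had 12 in KO against 45 in WT, a fold of 3.55 and a -log10 q of 8.28. H3K9ac 1.9 kb in, also in the intron, had 12.6 in KO against 44.0 in WT (fold 3.30, -log10 q 6.82), and a second H3K9ac region 0.6 kb upstream had 19.9 against 47.0 (fold 2.30). H3K27ac over the coding exon 0.5 kb in had 58.0 in KO against 99.2 in WT (fold 1.70), and H3K4me1 1.4 kb upstream had 9.40 against 32.0 (fold 3.17). These 5 regions shared no bases with each other. A non-coding gene, 4930564K09Rik, overlaps Lrat on the other strand, and when genes of every biotype are used 3 of the 5 regions were left at Lrat. Restricting to a -log10 q of 5 or more left 2. Under the authors' own gene names the H3K4me1 region did not belong to Lrat.

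The gene of the carotenoid-cleaving oxygenase, Bco1 (chromosome 8, 119619754 to 119657397), had no region in any of the 10 lists within 50 kb, and none within 100 kb. A missing region means that no difference passed the cutoff in these lists and does not show that the marks were equal.

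Dhrs3 encodes the reductase that returns retinaldehyde to retinol and is known to be induced by retinoic acid. It had the most regions of the members: 11 KO-higher H3K27ac regions and 1 KO-higher H3K9ac region, between 3.5 and 38.3 kb from the gene's 5′ end on chromosome 4 (gene at 144482730 to 144518112, plus strand). Of the genes with KO-higher H3K27ac, 98.1% had fewer such regions, and the median was 2. Within the gene, 9 H3K27ac regions lay in introns. The 3 nearest the 5′ end had the highest KO pileups, 130, 114 and 137 against WT backgrounds of 62.5, 47.6 and 64.5, and folds of 2.06 to 2.36. The highest fold, 4.25, was found 21.5 kb in, at 144503904 to 144504345, with 47.0 in KO against 10.3 in WT, and the next region, 22.8 kb in, had 44.0 against 11.9 (fold 3.49). The 2 regions past the 3′ end had folds of 2.27 and 3.41. H3K9ac lay over a coding exon 31.1 kb in, with 23.5 in KO against 4.71 in WT and a fold of 4.28, and shared no bases with the H3K27ac regions.

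Isx encodes an intestine-specific homeobox protein that is induced by retinoic acid and represses Bco1 and the carotenoid receptor gene Scarb1. It had 11 KO-higher regions, 6 for H3K27ac and 5 for H3K9ac, between 12 kb upstream and 48.3 kb downstream of the gene's 5′ end on chromosome 8 (gene at 77396618 to 77417405, plus strand). H3K9ac lay next to a transcription start, 0.09 kb past it. That region, over an untranslated part of an exon at 77397475 to 77397615, had 142 in KO against 67.0 in WT (fold 2.1), and the next, in the intron 2.0 kb in, had 135 against 61.0 (fold 2.19). Both marks met at 2 sites. In the intron 5.7 kb in, H3K27ac had 63.0 in KO against 26.8 in WT (fold 2.30) and H3K9ac 54.2 against 15.7 (fold 3.31), over 189 shared bases. Downstream of the gene, 26.5 kb from the 5′ end, H3K27ac had 61.0 in KO against 20.8 in WT (fold 2.84) and H3K9ac 27.1 against 6.65 (fold 3.67), over 142 shared bases. The highest H3K27ac fold, 3.87, lay 31.8 kb from the 5′ end (72.0 in KO, 17.9 in WT, -log10 q 17). A pair of regions 11.2 and 12 kb upstream had folds of 3.78 and 3.57. All 11 regions had a -log10 q of at least 5. The farthest summit lay 47.5 kb from the nearest start, and no region of any member lay between 50 and 150 kb. With a limit of 20 kb, 6 of the 11 regions were left.

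**Figure D4:**
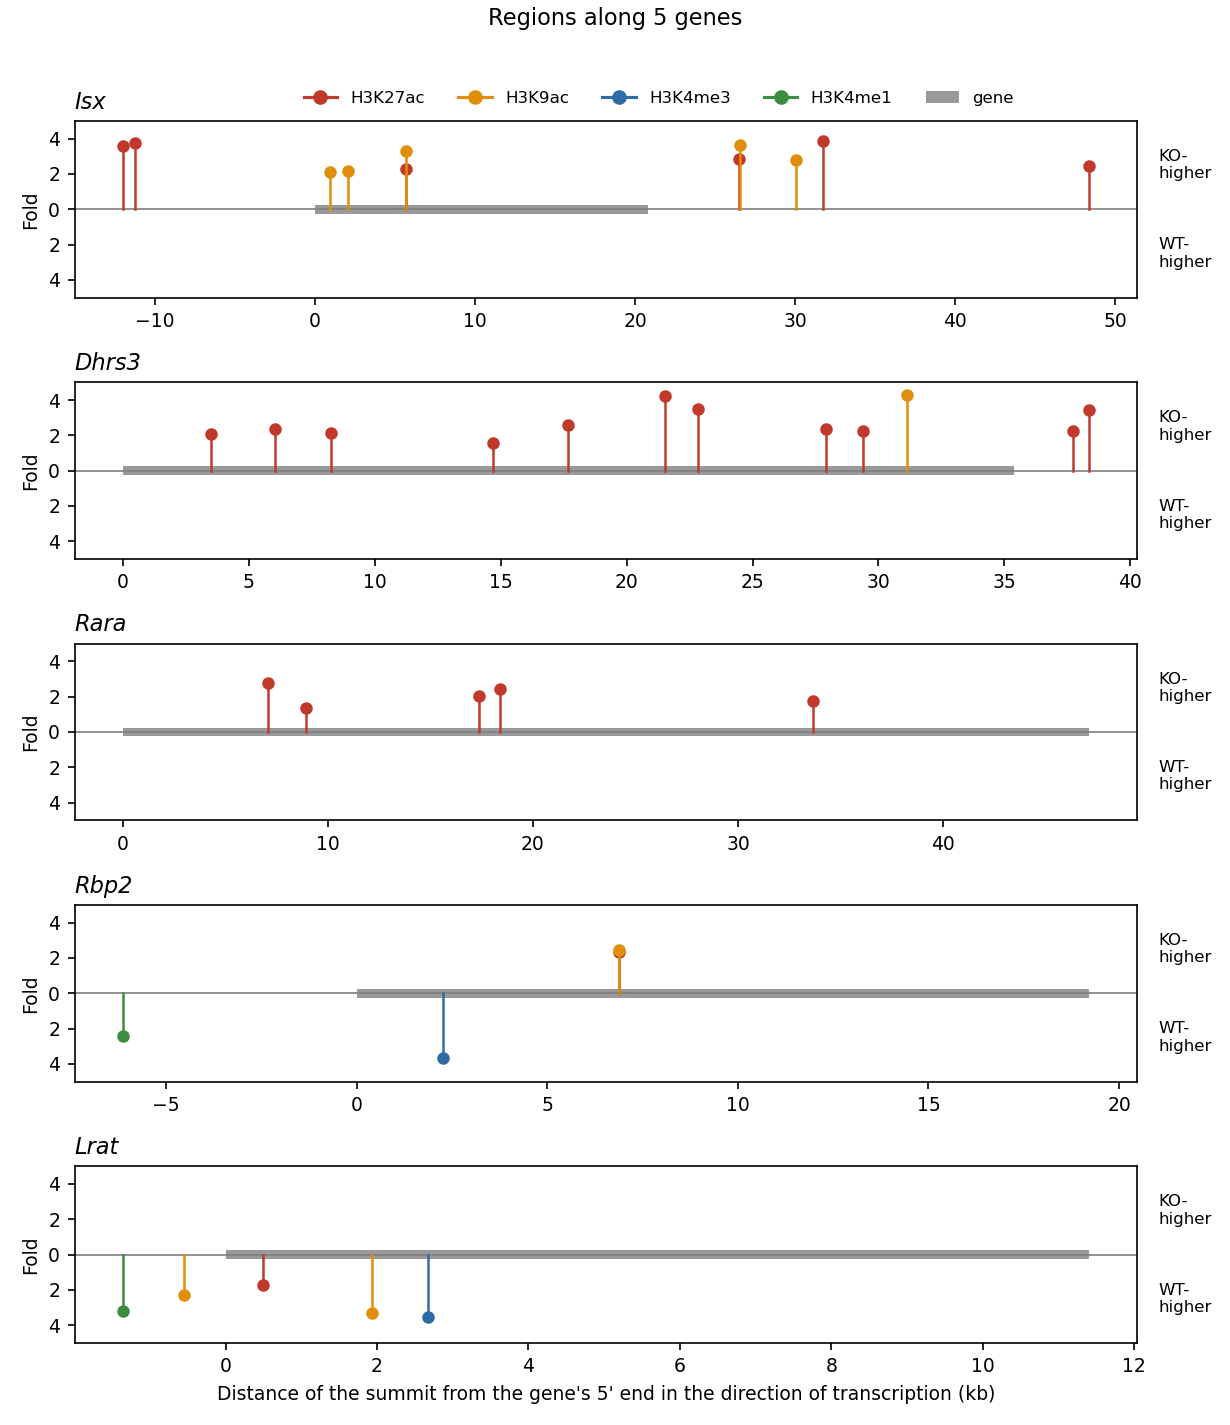
Regions along Isx, Dhrs3, Rara, Rbp2 and Lrat, by distance of the summit from the gene's 5′ end in kb (each panel has its own scale). Stems show the authors' fold, upwards for KO-higher and downwards for WT-higher regions, coloured by mark, and the grey bar is the gene. Isx, Dhrs3 and Rara have stems upwards only, Lrat downwards only, and Rbp2 both.

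Of 7 KO-higher H3K9ac regions at the members, 3 (42.9%) overlapped one of KO-higher H3K27ac by at least 1 base, beside 733 of 1883 (38.9%) over the whole list. From the other side, 3 of 23 KO-higher H3K27ac regions (13%) did so with KO-higher H3K9ac, beside 728 of 7111 over the list. The shared sites were about as frequent at the members as elsewhere. Duplicate removal left 56.0% of KO and 64.3% of WT H3K9ac tags, and 87.1% of KO and 87.0% of WT H3K27ac tags. The part of this loss in the H3K9ac counts was not tested.

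The authors' deposited table of H3K4me1 regions also carries RNA values, and 2 members have one there. They come from 6 intestine RNA libraries that are not among the samples here. A positive log2 value was taken to mean a higher level in KO. For Dhrs3 the authors' deposited table gives a log2 fold change of 0.64 (FDR 1.12e-10, the authors' adjusted p-value), and Dhrs3 entered it through a WT-higher H3K4me1 region of fold 1.78, 132.5 kb from its start, by the authors' own naming, which no distance limit bounds. By that naming Dhrs3 has a WT-higher region beside its KO-higher ones. For Rbp2 the authors' deposited table gives 0.14 (FDR 0.536), which did not pass. At an FDR under 0.05, KO was above WT for 4.97% and below WT for 9.62% of the 1549 genes that have a value in the authors' deposited table. These are only genes that the authors named for a WT-higher H3K4me1 region, so the shares do not describe all genes.

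The wider retinoid pathway was described with 66 further genes in 6 lists, of which 63 had a gene model on a chromosome with listed regions and 40 had at least 1 region. KO-higher H3K27ac lay at 26 (41.3%) and KO-higher H3K9ac at 6 (9.52%), WT-higher H3K27ac at 4 (6.35%), WT-higher H3K9ac at 5 (7.94%), WT-higher H3K4me3 at 13 (20.6%) and WT-higher H3K4me1 at 5 (7.94%). Of all genes 38.4% had at least 1 region. The shares over all genes were 11.5% for KO-higher H3K27ac and 4.0% for KO-higher H3K9ac. In the WT direction they were 7.53% for H3K27ac, 7.58% for H3K9ac, 15.2% for H3K4me3 and 7.57% for H3K4me1. The pathway shares for WT-higher H3K27ac, H3K9ac and H3K4me1 were thus close to those of all genes.

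Of 24 genes of enzymes that cleave, oxidise or reduce retinoids, 14 had KO-higher acetylation without any WT-higher acetylation and 0 had WT-higher acetylation. Over all genes 10.9% had KO-higher acetylation alone, 11.4% WT-higher acetylation alone and 1.30% both. Rdh7, of the retinol dehydrogenase family, had 3 KO-higher H3K27ac regions (folds 1.79 to 3.26) and 4 KO-higher H3K9ac regions (2.45 to 4.61). Its neighbour Rdh16 had 1 of each (2.21 and 3.04). Both belong to a row of related genes on chromosome 10, where Rdh1 and Rdh9 also had KO-higher H3K27ac (highest folds 3.28 and 3.22). Rdh1 and Rdh9, named after their values were seen, overlap in the gene models, so the split of regions between them is uncertain. Others of the 14 lie close together on chromosomes 3 and 6, so the 14 genes are not 14 separate places in the genome. Akr1b10, whose human counterpart reduces retinaldehyde, had KO-higher H3K27ac (2.64) and WT-higher H3K4me3 (1.95). Dhrs4, a retinal reductase gene, had 2 KO-higher H3K27ac regions (2.80 and 3.46), and the authors' deposited table gives it a log2 fold change of 0.33 (FDR 0.0332).

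Among 12 genes of uptake, esterification and transport, 6 carried KO-higher H3K27ac (beside 11.5% of all genes) and 4 carried WT-higher H3K4me3 (beside 15.2%). Mttp, needed to load chylomicrons, had 6 KO-higher H3K27ac regions (1.89 to 3.39) and 6 KO-higher H3K9ac regions (2.32 to 4.37) with 1 WT-higher H3K4me1 region (3.34), and the authors' deposited table gives a log2 fold change of 0.59 (FDR 1.26e-09). Scarb1, a target of the Isx repressor, had 2 WT-higher H3K4me3 regions (2.0 and 3.34) and 1 WT-higher H3K4me1 region (2.31), no acetylation region, and a log2 fold change of -0.12 in the authors' deposited table (FDR 0.825). Lrp1, a receptor for chylomicron remnants, had KO-higher H3K27ac of fold 1.41 and WT-higher H3K4me3 of fold 1.72.

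Of 9 known targets of retinoic acid, 3 had WT-higher acetylation only, 1 had both directions and 0 had KO-higher acetylation only. Over all genes these shares were 11.4%, 1.30% and 10.9%, so 0 of 9 is close to the last of them. Rarres1, named for its induction by retinoids, had WT-higher H3K9ac of fold 7.99 and H3K4me3 of fold 2.13. Tgm2, a transglutaminase gene induced by retinoic acid, had 6 KO-higher H3K27ac regions (1.64 to 2.47) beside WT-higher H3K27ac (1.89), H3K9ac (4.81) and H3K4me1 (3.63), with a log2 fold change of 0.12 in the authors' deposited table (FDR 0.66). Of the 4 clearance genes, Cyp26a1 had WT-higher H3K4me3 (3.08) and Cyp26c1 WT-higher H3K9ac (4.53), both named after their values were seen, and the other 2 had no region. Over all genes, WT-higher H3K4me3 lay at 15.2% and WT-higher H3K9ac at 7.58%. Of 8 receptors and partners, 2 had KO-higher H3K27ac (beside 11.5% of all genes), 1 had WT-higher H3K9ac (beside 7.58%) and 4 had no region. Ncor1, the deleted gene, named after its values were seen, had 1 KO-higher H3K27ac region of fold 6.04, which does not check the deletion. Nrip1, a nuclear receptor corepressor gene induced by retinoic acid, had 9 KO-higher H3K27ac regions (1.60 to 4.57) and 1 WT-higher H3K4me3 region (1.92).

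Of 6 transcription factor genes listed as regulators of Isx and Rbp2, 5 had KO-higher H3K27ac and 0 had WT-higher acetylation. KO-higher H3K27ac lay at 11.5% of all genes and at all 10 enterocyte marker genes. Ppara, the receptor for fatty acids, had 33 KO-higher H3K27ac regions (1.72 to 6.75) and 13 KO-higher H3K9ac regions (1.79 to 7.11). Hnf4a, Gata4 and Ppard had 4, 3 and 4 KO-higher H3K27ac regions, with highest folds of 2.31, 2.75 and 3.70, and each also had 1 WT-higher H3K4me3 region (1.68, 1.52 and 2.21).

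Genes with the same set of lists as a member were sought for the 3 members with regions in 3 or more of the 10 lists. The 4 lists of Rbp2, KO-higher for both acetylation marks and WT-higher for both H3K4 methylation marks, were shared by 14 other genes, and Actb and Foxp1 were among the nearest 3 by the highest fold per list (Euclidean distances of 0.59 and 1.01 on the log2 scale). The 4 WT-higher lists of Lrat were shared by 93 genes, with Haus5, Trib1 and Fam5c nearest (0.33, 0.66 and 0.67), and the 3 WT-higher lists of Rarg by 44 genes, with Nfatc2, Adck3 and Gca nearest (0.43, 0.45 and 0.50).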

How the data were processed

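Reads had 50 cycles and were aligned to mm9, as the labels' protocols say. Tools in the submitters' processing notes are HOMER 3.12, MACS2 2.1.1, Bowtie2 2.2.9 and CASAVA 1.8.2. The region caller was MACS 2.0.10.20130419 per the file headers, with the other genotype's library as control and 1 tag kept per position. The headers give a tag size of 75 bp, which differs from the 50 cycles and was not resolved. The deposited values per region are the pileup (a signal, with the larger library scaled down), the ratio of pileup to background (fold) and -log10 of the p-value and q-value. The authors' deposited RNA table holds a log2 fold change and an FDR, an adjusted p-value, with no test named. Its direction was read from HOMER's naming, in which the first group is the baseline. Of genes past the FDR, 83.1% with a positive and 6.71% with a negative value had KO-higher H3K27ac. These shares bear on the direction only if RNA and acetylation change together, so the direction remains an assumption. The 12 per-library RNA columns match no sample here and entered no calculation, although a few of their values were seen when the table was opened.

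Summits were joined to GENCODE M1 gene models of NCBIM37, the same assembly as mm9, in Python 3.11.15. The gene within 50 kb was the one the authors name for 1639 of 2123 H3K4me1 regions. The local background was computed as (pileup + 1) / fold - 1. With it a Poisson p-value came within 1% of the deposited one in 23509 of 23511 regions. Regions on a contig named UGT1A, which has no gene models, were kept in list totals only. The assignment was tested on simulated data, where 2000 of 2000 planted regions returned their gene.

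The members and gene lists were chosen with earlier results of these data known. All 10 members are named. Of the 66 other pathway genes, those with regions in 2 or more lists or past the FDR are named, and the others are counted, except where said. A few genes that meet these rules are not reported here by name. Alternatives were a -log10 q of at least 5, limits of 20 and 100 kb, genes of every biotype, the authors' gene for H3K4me1, and an overlap of 50% of the shorter region.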

Additional observations from a re-analysis of the deposited data

How the results depend on the processing

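With a -log10 q of at least 5, the members with WT-higher H3K27ac numbered 0 instead of 3, those with WT-higher H3K9ac 1 instead of 2, and those with WT-higher H3K4me1 0 instead of 5. The stricter limit removes regions by construction. The other 8 counts under it, and the counts of members in the 10 lists under limits of 20 and 100 kb and under genes of every biotype, stayed within 1.5 times. Part of this was fixed in advance. Lists with 0 members cannot lose any under the stricter limit, and no member region lay between 50 and 100 kb. Members with WT-higher H3K4me3 fell from 3 to 2 under the stricter limit. Those with WT-higher H3K27ac fell from 3 to 2 under 20 kb. By the authors' gene, WT-higher H3K4me1 lay at 4 members instead of 5: Stra6 and Lrat lost it, Dhrs3 gained it through a region 132.5 kb away, and Rarb, Rarg and Rbp2 kept it. Also within 1.5 times were the 3 sites shared by KO-higher H3K9ac and H3K27ac under an overlap of 50% of the shorter region. No paired analysis was possible because there was 1 library per mark and genotype and no test was made. The depth of 23925163 to 32444815 tags and the single libraries limit what can be called: a gene without a region is one at which no difference was detectable in the 10 lists, which leave out KO-higher H3K4me1 and H3K27me3.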

Other observations

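The 20 bases of the longest run shared by the downstream Isx site and the Lrat region (capitals in the sequences above) were also found in other listed regions. They were present in 157 of 7094 windows of 300 bases around KO-higher H3K27ac summits (2.21%), in 27 of 1882 KO-higher H3K9ac windows (1.43%), in 34 of 1809 KO-higher H3K9me3 windows (1.88%) and in 0 of 131 KO-higher H3K4me3 windows. Among WT-higher windows they were present in 0.439% for H3K27ac, 0.512% for H3K9ac, 0.266% for H3K4me3, 0.800% for H3K4me1, 1.44% for H3K9me3 and 1.39% for H3K27me3. Of the 44 member windows 4 held them, 2 at the downstream Isx site (H3K27ac and H3K9ac) and 2 at Lrat (H3K9ac and H3K4me1). The run was picked because 2 member sequences share it, so its count at the members cannot be set against the list shares. Whether the run lies in annotated repeats, and how reads were placed there, was not tested.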
